A study of Mus musculus with 3 samples.

Results

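The lung of a mutant mouse treated to deplete macrophages was compared with the lung of a wild type mouse, both aged 16 weeks, with 1 Affymetrix array per mouse. The 2 arrays compared were chosen by their sample labels, out of 3 in the series. The treated mouse (depleted lung) carried an IKKα genotype written KA/KA-Lori-Ikkα, whose abbreviations the labels do not spell out, and they do not name the agent used for depletion. Its lung was described as showing some inflammation with no tumour seen, and the wild type tissue as normal lung. The series' other array held lung squamous cell carcinoma mixed with neighbouring tissue from a mouse of the same mutant genotype and age, whose label names no depletion (tumour lung). Its values are given only beside those of the comparison. Genotype, treatment and mouse all differ between depleted and wild type lung, and their parts cannot be told apart. With 1 array per group there is no error on any value and no test, and precision is limited by that number. In whole lung tissue, more cells of a type and more RNA per cell cannot be told apart either.

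IKKα, encoded by Chuk, is one of the kinases that drive NF-kB signalling, in which inhibitor proteins hold transcription factors in the cytoplasm until kinases mark those inhibitors for removal. NF-kB factors switch on chemokines, cytokines, acute phase proteins and their own inhibitors. Lung macrophages include long-lived alveolar macrophages that clear surfactant and particles from the airspace, interstitial macrophages, and cells newly formed from blood monocytes. They release chemokines that attract neutrophils and lymphocytes, and they are the cells that the treatment was meant to remove.

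Intensities below are linear values of the deposited table, and where 3 are listed they stand in the order wild type, depleted and tumour lung. Folds are depleted over wild type lung, or the reverse where a gene is called lower. A gene counted as higher or lower if it was at least 2-fold apart. Genes could be named only through the authors' deposited comparison tables, which list probe sets that were past 2-fold in some comparison. Genes level in every comparison therefore have no name here, and the list counts below cover named members only. The tables gave 2944 named genes, of which 2622 were bright enough on 1 of the 2 arrays to be counted (reaching its 50th percentile). Of these, 644 were higher in depleted lung (24.6%), 547 were lower (20.9%), together 45.4%, and the median log2 difference was -0.06. Over all 24074 probe sets of sufficient brightness, named or not, 6.24% were higher and 6.33% lower. A gene dim on 1 array could be counted only if it was bright on the other, so list counts can lean toward that array. The larger differences lay on the higher side, where 74 genes were 8-fold apart or more, against 23 on the lower side. The scatter of the arrays shows where the gene groups fall.

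**Figure D1:**
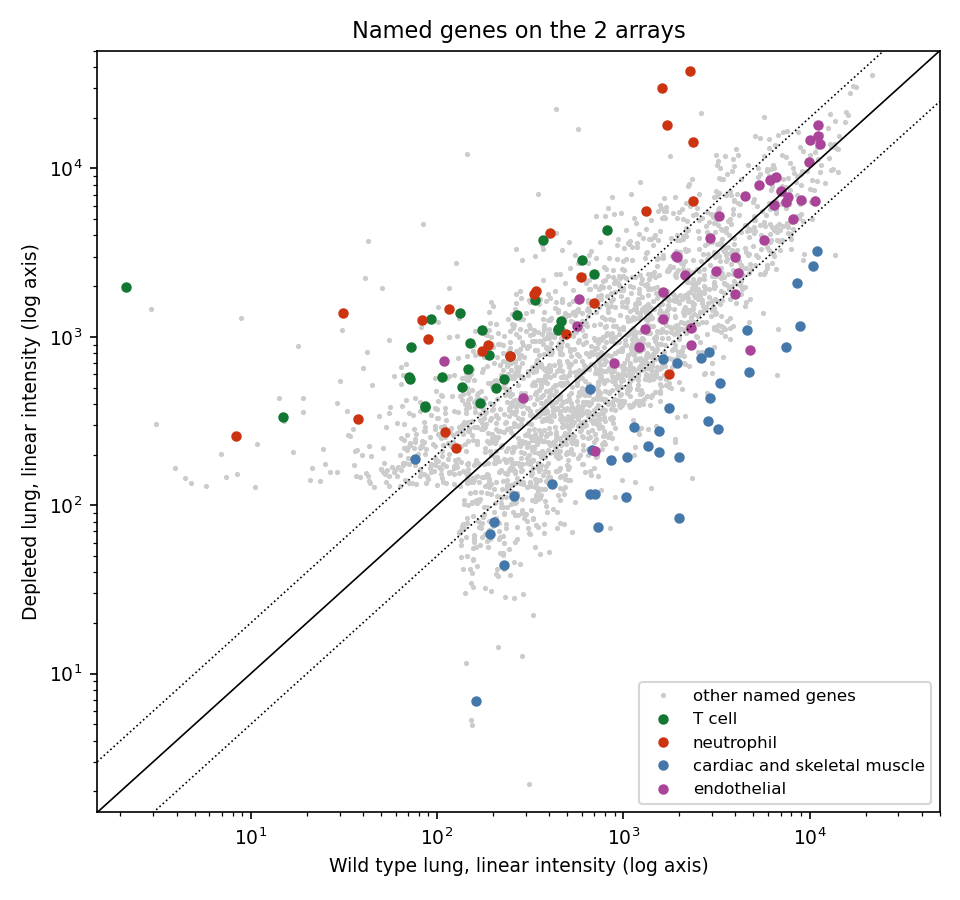
Each point is 1 named gene that passed the level filter, with its linear intensity in wild type lung on the horizontal axis and in depleted lung on the vertical axis, both logarithmic. The solid line marks equal levels and the dotted lines 2-fold. All 29 T cell genes and 22 of 24 neutrophil genes lie above the upper dotted line and 35 of 37 cardiac and skeletal muscle genes below the lower one, while 31 of 39 endothelial genes lie between the lines.

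The reading of a difference depended on the scale in 2 ways. The 18 hybridization control probe sets, for which labelled RNA is added in equal amounts, read higher in depleted lung by a median log2 difference of 1.18 over those probe sets, or 1.29 between their medians on the 2 arrays. Setting those medians equal lowers every gene by 1.29, moves the median of all probe sets from -0.02 to -1.31 and leaves 152 genes higher and 1561 lower. The level filter was applied again on that scale and passed 2562 genes, so a list median there can cover slightly different genes. The directions below are therefore those relative to the bulk of the probe sets, which were level between the arrays in the deposited values. The other dependence was on brightness. The largest intensity was 21977 on the wild type array and 40821 on the depleted array, and of the 320 probe sets averaging over 11585, 97.5% were higher in depleted lung, and the median log2 difference was 0.77. This median was 0.02 after quantile normalization, and for the 32 of those probe sets that the authors listed, the median log2 of the authors' deposited ratio was -0.34. Of the 67 named genes averaging at least 8192, 30 had a ratio in the authors' deposited table that pointed the other way. None of the 1191 genes at least 2-fold apart did, but 220 of them had a fold over 1.5 times apart from that table, and where a fold of such a gene is printed below, the authors' value is given too.

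**Figure D2:**
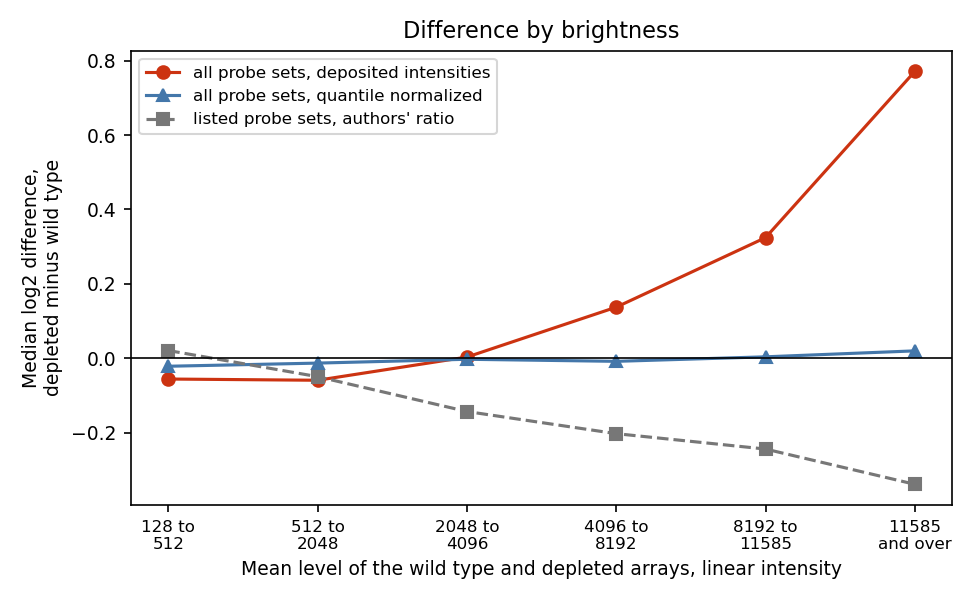
The vertical axis is the median log2 difference, depleted minus wild type lung, and the horizontal axis the mean level of the 2 arrays in bands of linear intensity. The median of all probe sets in the deposited intensities (circles) climbed to 0.77 in the brightest band, was 0.02 there after quantile normalization (triangles), and the authors' ratio for listed probe sets (squares) reached -0.34.

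The genes with the largest differences came from a few groups. Among the 15 highest were acute phase and antimicrobial genes (Saa3, Itln1, Wfdc17), chemokines (Cxcl1, Ccl3, Ccl8), genes of T cells (Ms4a4b, Izumo1r), mucous and type 2 inflammation genes (Clca1, Chil4), an immunoglobulin gene (Ighg1), the neutrophil gene Stfa2l1, and the macrophage receptor genes Marco and Clec4e. Itln1, which encodes a secreted lectin that binds microbial sugars, had the largest fold that was not a lower bound, with intensities of 42.5, 3707 and 1607. Depleted lung was 87.3-fold above wild type, and 49.2-fold in the authors' deposited table. Ms4a8a, a membrane protein gene of the Ms4a family, measured 41.0, 2248 and 1113, a 54.9-fold difference (24.6-fold by the authors' deposited table). Most of the 15 lowest genes belong to striated muscle (Mb, Mybphl, Ckmt2, Smpx, Tnnc1 and Myl4 among them), led by Nppa, the atrial natriuretic peptide gene, with 2002, 83.6 and 34.6 (log2 difference -4.58). Fabp1, a fatty acid binding protein gene known from liver and intestine, measured 2342, 146 and 24.9, 16.1-fold lower in depleted lung (8.37-fold by the authors' deposited table).

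**Figure D3:**
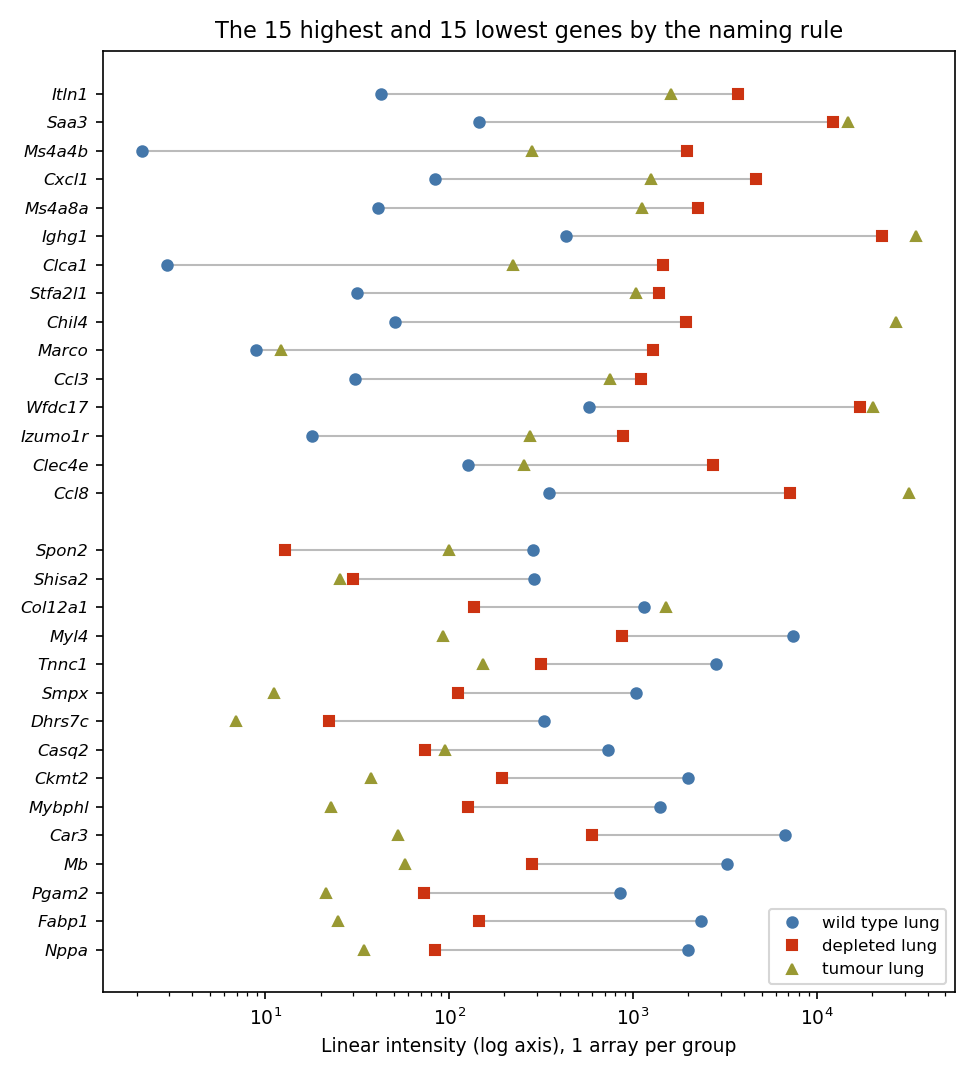
The horizontal axis is the linear intensity on a logarithmic scale, with 1 row per gene for the 15 highest and 15 lowest genes of the depleted against wild type comparison. Circles are wild type, squares depleted and triangles tumour lung, 1 array each. For Marco the wild type and tumour values (8.90 and 12.1) lie together and the depleted value (1289) apart, and for Col12a1 the depleted value (137) lies below the other values (1152 and 1511).

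Monocyte and macrophage genes were higher, not lower, in the lung labelled as macrophage-depleted. Of 51 listed genes 38 were named and 37 passed the level filter, with 31 of these higher and 1 lower, against 24.6% and 20.9% of all genes counted. Their median log2 difference was 1.72, and 0.43 with equal control medians. Their summed intensity was 51558 in wild type, 147959 in depleted and 309391 in tumour lung. Of 11 markers taken to define macrophages, Csf1r was not named and Cd163 did not pass the level filter, 8 of the other 9 were higher than wild type, and none of the 10 that were named was near 0 in depleted lung. Cd68, a lysosomal glycoprotein gene of macrophages, measured 1645, 5553 and 14106. Adgre1, an adhesion receptor gene long used to mark mouse macrophages, measured 641, 1438 and 2829. The level in depleted lung was thus between the other arrays for both, 3.38-fold and 2.24-fold above wild type, and for Adgre1 the direction turned when control medians were set equal (log2 -0.12).

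The complement subunit genes C1qa, C1qb and C1qc, which are made in tissue mainly by macrophages, were higher by log2 differences of 2.49, 1.93 and 1.73. C1qa measured 969, 5453 and 10360. Ms4a7, a membrane protein gene of mature macrophages, went the same way, by 2.15. Mrc1, the mannose receptor gene of resident and alternatively activated macrophages, measured 2235, 4310 and 12727, just under 2-fold. Cd163, the haemoglobin scavenger receptor gene of resident tissue macrophages, measured 82.0, 101 and 2266, and so did not pass the level filter. Of the 10 defining markers that were named, 9 were lower in depleted than in tumour lung.

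Some members of the list known from lipid-laden or matrix-degrading macrophages were above wild type. Gpnmb, a glycoprotein gene of lipid-loaded phagocytes, measured 438, 4131 and 21879, a 9.44-fold difference. Trem2, a receptor gene for lipids and cell debris, measured 68.1, 422 and 3288, 6.20-fold higher (2.07-fold by the authors' deposited table). Ctsk, a collagen-cleaving cathepsin gene, was 7.30-fold higher, with 716, 5223 and 12476. Mmp12, the macrophage elastase gene, measured 282, 1704 and 23623, a 6.05-fold difference. All 4 lay well below the tumour array. Cd14, the co-receptor gene for bacterial lipopolysaccharide, differed in this, with 897, 5345 and 4565. The C-type lectin receptor genes Clec4d and Clec4e, which sense mycobacterial and fungal glycolipids on myeloid cells including neutrophils, were highest in depleted lung. Clec4e measured 127, 2728 and 254, a 21.5-fold difference, and Clec4d 266, 3310 and 1263, a 12.5-fold difference. Ch25h, which makes 25-hydroxycholesterol, measured 287, 2866 and 3270. The osteopontin gene Spp1 was under 2-fold from wild type, at 9230, 12647 and 29937.

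**Figure D4:**
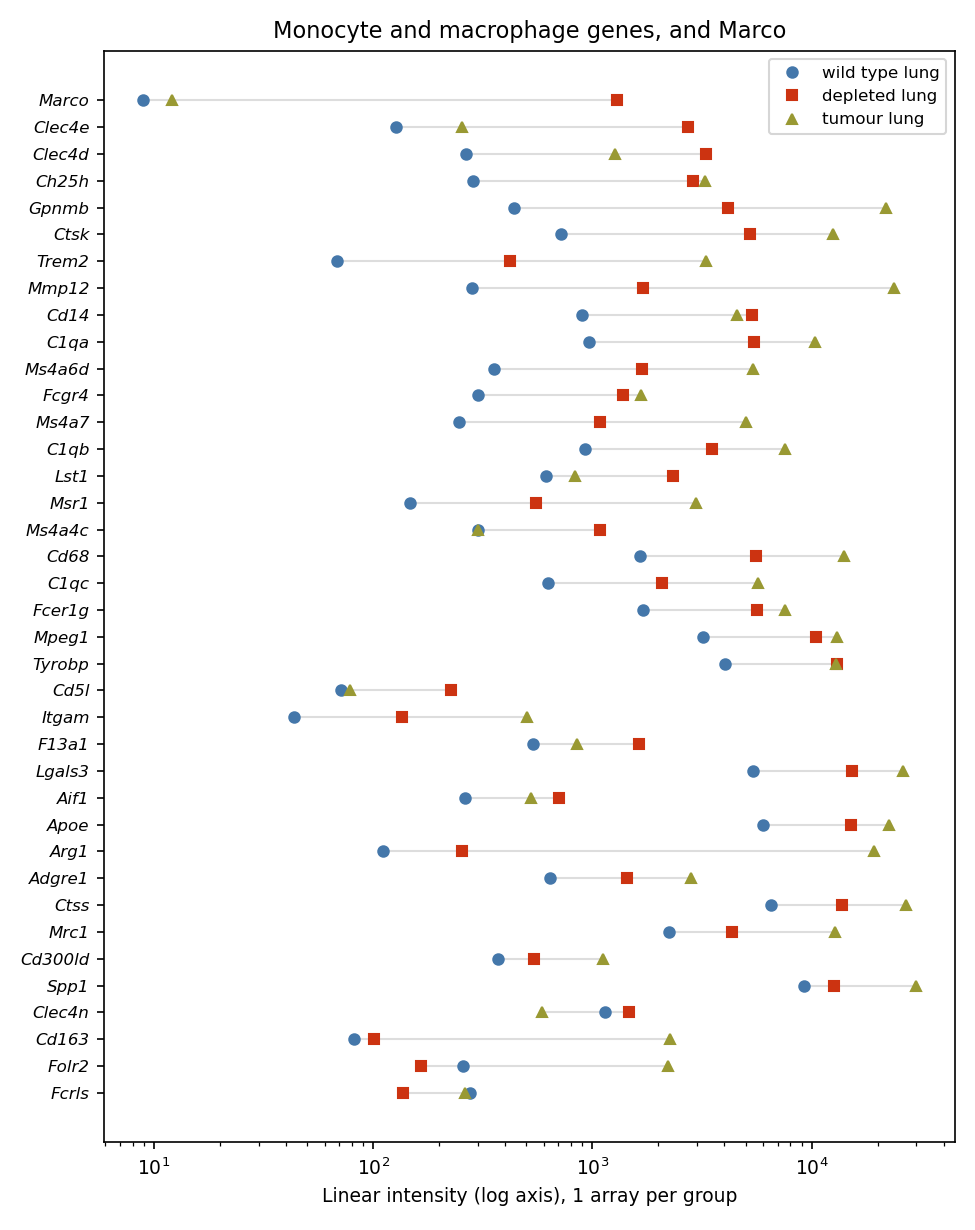
The horizontal axis is the linear intensity on a logarithmic scale, with 1 row for each of 37 of the 38 named monocyte and macrophage genes and for Marco, ordered by the difference between depleted and wild type lung. Circles are wild type, squares depleted and triangles tumour lung, 1 array each. Most squares lie to the right of the circles and to the left of the triangles, while Marco, Clec4e and Clec4d are furthest right in depleted lung.

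The alveolar macrophage list was divided. All 19 named members passed the filter, of which 6 were higher, 2 lower and 11 under 2-fold. Of all genes counted, 24.6% were higher and 20.9% lower, so the share higher was not far from that of all genes. The median of 0.61 was -0.74 with equal control medians. Marco, a scavenger receptor gene for particles and bacteria, measured 8.90 in wild type, 1289 in depleted and 12.1 in tumour lung, at least 37.1-fold above wild type (21.0-fold by the authors' deposited table). It was bright on the depleted array alone. Atp6v0d2, a subunit gene of the lysosomal proton pump, measured 1108, 3433 and 9561, and Ccl6, a chemokine gene of alveolar macrophages and other myeloid cells, 5728, 20297 and 19629. Ccl6 was 3.54-fold higher and Atp6v0d2 3.10-fold. Plet1, which is also expressed by epithelium, measured 3112, 5348 and 2530, Lpl, the lipoprotein lipase gene, 1484, 2266 and 3190, and Fabp4, a lipid carrier gene of macrophages and fat cells, 146, 176 and 465, all under 2-fold. The lower members were Fabp1 and the lipid droplet gene Cidec, which measured 163, 43.4 and 4.86 (3.76-fold lower, and 1.88-fold by the authors' deposited table). Cidec is also a fat cell gene, and fat cell genes were lower as a group.

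Neutrophil genes were among the groups furthest above wild type. Of 24 that passed the filter (25 named of 40), 22 were higher and 1 lower, at a median log2 difference of 2.45, or 1.17 with equal control medians. Their summed intensity was 17478 in wild type, 134304 in depleted and 105740 in tumour lung. Camp and Cxcr2, among others, passed the filter only through their level in depleted lung, and so could hardly be counted as lower. S100a8 and S100a9 encode the paired calcium-binding proteins that fill the neutrophil cytoplasm. S100a8 measured 2272, 37994 and 16086, and S100a9 measured 1614, 29866 and 14352. They were 16.7-fold and 18.5-fold above wild type and were among the brightest genes on the depleted array.

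Granule genes, which neutrophils transcribe mostly while maturing in bone marrow, differed in size and, for Ltf, in direction. Ngp, a granule protein gene, measured 83.4, 1266 and 151, 15.2-fold higher (5.62-fold by the authors' deposited table). Camp, the cathelicidin gene, was at least 7.38-fold higher, with 8.36, 256 and 17.7 (2.61-fold by the authors' deposited table). Both were high on the depleted array alone. Mmp8, the neutrophil collagenase gene, measured 115, 1461 and 830, a 12.7-fold difference, and Lcn2, the gene of an iron-sequestering protein also made by epithelium, 1707, 18055 and 25803, a 10.6-fold difference. Stfa2l1, a stefin gene of mouse neutrophils, measured 31.4, 1380 and 1041, at least 39.7-fold higher (20.5-fold by the authors' deposited table). Ltf, the lactoferrin gene, which airway glands and epithelium also express, was the member that was lower, with 1761, 601 and 1202. Mpo, the myeloperoxidase gene of early precursors, measured 127, 219 and 78.0, under 2-fold.

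The neutrophil list also holds receptor genes of circulating neutrophils. Cxcr2, the receptor gene for the CXC chemokines described next, measured 37.5, 325 and 125, 8.69-fold higher (3.49-fold by the authors' deposited table). Csf3r, the receptor gene for granulocyte colony stimulating factor, measured 341, 1879 and 845, 5.52-fold higher (3.12-fold by the authors' deposited table). Il1r2, a decoy receptor gene for interleukin 1, measured 89.2, 969 and 307, 10.9-fold higher (5.90-fold by the authors' deposited table). In each of these 3 genes depleted lung was the highest of the arrays.

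Several ligands of Cxcr2 were far above wild type. Cxcl1 measured 84.1, 4649 and 1254, a 55.3-fold difference (12.2-fold by the authors' deposited table), and its 3 probe sets gave log2 differences from 2.06 to 5.79. Cxcl2 measured 42.4, 813 and 838, 19.2-fold higher (11.2-fold by the authors' deposited table), and Cxcl5, an epithelial ligand, 30.3, 550 and 1336, at least 15.8-fold higher. For Cxcl1 the depleted array was the highest, while for Cxcl5 it lay below the tumour array. Of 8 CXC ligand genes counted, 6 were higher and 1 lower. The lower one was Cxcl14, an epithelial and stromal chemokine gene, with 648, 198 and 390. Ppbp, a platelet gene whose product also gives a Cxcr2 ligand, measured 2729, 1818 and 1053 and so was not above wild type. Cxcl1, Cxcl2 and the inhibitor gene Nfkbia are textbook NF-kB target genes, and their promoters are shown because the ligands were so far apart and the mutated kinase belongs to that pathway. The 120 bases before the transcription start are from RefSeq (GRCm38.p6), written 5′ to 3′ on the gene's strand, and capitals mark the match to GGAANTTCC, the core of the NF-kB motif, which reads the same on both strands. The regions are chr5:90891125-90891244 (plus strand), chr5:90903779-90903898 (plus strand) and chr12:55492648-55492767 (minus strand).
Cxcl1: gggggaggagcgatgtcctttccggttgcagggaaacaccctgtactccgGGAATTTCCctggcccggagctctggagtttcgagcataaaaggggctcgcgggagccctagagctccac
Cxcl2: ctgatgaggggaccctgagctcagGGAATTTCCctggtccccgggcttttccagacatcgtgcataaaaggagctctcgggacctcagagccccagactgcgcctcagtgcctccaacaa
Nfkbia: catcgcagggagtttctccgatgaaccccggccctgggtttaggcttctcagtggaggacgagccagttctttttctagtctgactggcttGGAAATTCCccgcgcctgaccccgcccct

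Each of these promoters had 1 match, whose first base lay at -70, -96 and -29 from the start for Cxcl1, Cxcl2 and Nfkbia. Over the 250 bases before the start, 0.944% of the 27025 genes with a promoter in the table held the motif. Of the 60 genes at least 8-fold higher in depleted lung that had a promoter there, 5 held it (8.33%), among them Cxcl1, Cxcl2, Ccl12 and Il1r2. In genes at least 2-fold higher it was 14 of 480 (2.92%), with Tnfaip3 one of them, in those under 2-fold 10 of 1088 (0.919%), and in those lower 1 of 399 (0.251%). The motif was chosen with the values known, so these shares are a description, and most genes that were higher had no match in this window.

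CC chemokine genes showed the same direction. Of 13 counted, 11 were higher and none lower, and the median log2 difference was 2.41 (1.12 with equal control medians). Ccl3, which attracts monocytes and T cells, measured 30.9, 1103 and 750, at least 31.7-fold higher (18.8-fold by the authors' deposited table). Ccl8, a monocyte and T helper type 2 cell attractant, measured 350, 7097 and 31832, a 20.3-fold difference. Ccl2, the main ligand of the monocyte receptor CCR2, measured 70.4, 355 and 1169, 5.05-fold higher (3.00-fold by the authors' deposited table). Ccl12, another ligand of that receptor in mice, measured 15.2, 316 and 3166, at least 9.08-fold higher (4.35-fold by the authors' deposited table). The monocyte attractants Ccl2, Ccl8 and Ccl12 and the eosinophil attractant Ccl11 (156, 824 and 3302) were thus above wild type and below tumour lung. The ligands of CCR4 on T cells stood the other way round. Ccl22 measured 101, 1509 and 547, 14.9-fold higher (5.35-fold by the authors' deposited table), and Ccl17 131, 1288 and 255, 9.87-fold higher. Both were highest in depleted lung.

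Cytokine and acute phase genes accompanied the chemokines. Il1b, the gene of the inflammasome-processed cytokine interleukin 1 beta, measured 467, 3260 and 770, a 6.99-fold difference. Il10, which encodes an anti-inflammatory cytokine, measured 48.9, 338 and 123, 6.91-fold higher (4.55-fold by the authors' deposited table). Csf2, the growth factor gene that sustains alveolar macrophages, measured 146, 462 and 168, 3.17-fold higher (1.90-fold by the authors' deposited table). All 3 were highest in depleted lung. Il33, an alarmin gene of alveolar type II cells, and Il18 were under 2-fold, at 2535, 2217 and 9638 for the former. Saa3, an acute phase gene of macrophages and epithelium, measured 145, 12239 and 14812, 84.3-fold higher. Of 12 complement and acute phase genes 7 were higher and 1 lower. The lower one was Cfd, the adipsin gene of fat cells and macrophages, with 2423, 450 and 9.58.

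Most genes of NF-kB subunits, inhibitors and regulators that could be counted were higher than in wild type lung. Only 13 of the 38 listed genes were named, so the list as a whole is not covered. Of 13 counted, 11 were higher and none lower, at a median log2 difference of 1.74 (0.45 with equal control medians), and 12 of the 13 read higher in depleted than in tumour lung. Nfkb2, the precursor of the p52 subunit whose processing IKKα drives, measured 149, 579 and 301, 3.89-fold higher (2.20-fold by the authors' deposited table). Bcl3, an atypical inhibitor family member that binds p50 and p52, measured 180, 1044 and 846, 5.78-fold higher (2.86-fold by the authors' deposited table). Ikbke, a kinase gene related to the IKK family, measured 128, 1008 and 465, 7.86-fold higher (3.80-fold by the authors' deposited table). Nfkbie, an inhibitor gene, measured 311, 1653 and 626, and was 5.32-fold higher (3.39-fold by the authors' deposited table). Tnfaip3, which encodes the deubiquitinating brake A20, measured 805, 2541 and 2095, a 3.15-fold difference. Birc3, an inhibitor of apoptosis, was 3.51-fold higher, with 1413, 4954 and 2758. Nfkbia, the classical inhibitor gene, was brighter than the rest and under 2-fold, at 6357, 10465 and 4116. Chuk itself was not named in the deposited tables, so the targeted gene is not analysed here.

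T cell genes were higher without exception among those counted. Genes level in every comparison could not enter this count. Some members, such as Cd8b1 and Ms4a4b, passed the filter only through their level in depleted lung. Of 46 listed genes 30 were named, 29 passed the filter, and all 29 were higher, and the median log2 difference was 2.26 (0.97 with equal control medians). Their summed intensity was 7322 in wild type, 35547 in depleted and 22301 in tumour lung, and 26 of the 29 read higher in depleted than in tumour lung. Cd3d, a signalling chain of the T cell receptor, measured 369, 3749 and 1065, a 10.2-fold difference. Cd8b1, a co-receptor chain of cytotoxic T cells, measured 70.7, 574 and 192, 8.12-fold higher (4.56-fold by the authors' deposited table), and its partner Cd8a measured 86.7, 390 and 196. Ms4a4b, a membrane protein gene of T cells, measured 2.14, 1975 and 284, at least 56.8-fold higher, while its other probe set gave a log2 difference of 2.07. It was below the dim limit in wild type lung and bright in depleted lung.

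The T cell genes counted include some of naive or recirculating cells and some of activated or regulatory cells. Ccr7, the homing receptor gene for lymph nodes, measured 268, 1352 and 259, 5.04-fold higher, and was level between wild type and tumour lung. Il7r, the receptor gene for a T cell survival cytokine, measured 815, 4336 and 6310. Ctla4, an inhibitory receptor gene of regulatory and activated T cells, measured 72.7, 876 and 621, 12.0-fold higher (5.82-fold by the authors' deposited table). Pdcd1, the gene of the inhibitory receptor PD-1, measured 14.9, 335 and 324, at least 9.65-fold higher (5.62-fold by the authors' deposited table). Izumo1r, the folate receptor 4 gene of regulatory T cells, measured 18.0, 883 and 275, at least 25.4-fold higher, but 2.47-fold in the authors' deposited table. Only 2 of 18 listed NK and cytotoxic genes were named. Gzma, a granzyme gene, measured 735, 521 and 235, and Ccl5, a chemokine gene of cytotoxic T and NK cells, 1242, 2101 and 567, both under 2-fold.

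A few cytokine genes of lymphocytes and lymphoid tissue are picked out here from the TNF and chemokine lists. Ltb, the lymphotoxin beta gene, whose product on lymphocytes signals to stromal cells, measured 191, 1405 and 571, a 7.37-fold difference. Lta, which encodes its partner lymphotoxin alpha, measured 7.34, 147 and 46.9, at least 4.23-fold higher (2.09-fold by the authors' deposited table). Cxcl13, the B cell attractant of lymphoid follicles, measured 424, 1018 and 573, 2.40-fold higher, with a log2 difference of -0.02 once control medians were equal. For these 3 the depleted array was the highest.

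Of 28 B cell and plasma cell genes counted, 21 were higher and none lower, and the median log2 difference was 1.27 (-0.02 with equal control medians). Ms4a1, the CD20 gene of mature B cells, measured 705, 1992 and 389, and Cd79b, a chain of the B cell receptor, 654, 2176 and 680. They were 2.83-fold and 3.33-fold above wild type, with tumour lung near or below wild type. Jchain, which links secreted antibodies, measured 1145, 5102 and 11665, and Mzb1, an antibody assembly chaperone gene, 370, 1269 and 1462. For these plasma cell genes the tumour array was the highest. Ighg1, an immunoglobulin G heavy chain gene, measured 433, 22567 and 34594, 52.1-fold higher (24.2-fold by the authors' deposited table). Ighm, the immunoglobulin M heavy chain gene, measured 1784, 11926 and 13278, but when probe sets that may share sequence with other genes were left out its log2 difference was -0.05. Heavy chain genes share sequence, so the split among them is uncertain. Probe sets listed under several immunoglobulin heavy chain symbols were picked by their title, which may not have found all of them. The 3 picked went the opposite way to Ighg1. The furthest apart measured 5073 in wild type, 14.9 in depleted and 9148 in tumour lung, at least 145-fold lower (42.0-fold by the authors' deposited table), and the others were 35.4-fold and 27.9-fold lower. All 3 were brighter in wild type and tumour lung than in depleted lung, where they measured 14.9, 121 and 137.

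Of 10 dendritic cell genes counted, 6 were higher and 2 lower, and the median was 1.27 (-0.02 with equal control medians). Fscn1, an actin bundling gene of mature dendritic cells, measured 512, 3642 and 2805, a 7.11-fold difference, and Cd83, another maturation marker, 535, 1394 and 1450. Cd209d, a C-type lectin gene of the DC-SIGN family, was lower with 138, 41.6 and 563 (3.31-fold, and 1.18-fold by the authors' deposited table), and Dpp4, a peptidase gene also expressed by epithelium and lymphocytes, was 2.14-fold lower, though another of its probe sets was under 2-fold (log2 -0.91). H2-K1, a class I antigen presenting gene, measured 3527, 11814 and 6011, a 3.35-fold difference. Interferon response genes were mostly level, with 3 of 9 higher and none lower, against 24.6% and 20.9% of all genes counted. Their median of 0.18 was -1.11 with equal control medians, and Ifit3 measured 1138, 1276 and 410.

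Most type 2 inflammation and mucous genes that were counted were higher. Of 17 counted, 14 were higher and 1 lower, at a median log2 difference of 2.41 (1.47 with equal control medians). The level filter, applied again on that scale, no longer passed Il4, so these medians do not cover the same genes. Clca1, a secreted protein gene of goblet cells, measured 2.93, 1457 and 222, at least 41.9-fold higher. Chil4, whose product resembles chitinases and marks type 2 inflammation in mice, measured 50.5, 1943 and 26919, a 38.5-fold difference. Retnla, a secreted protein gene of airway epithelium and alternatively activated macrophages, measured 2609, 21367 and 29391, and was 8.19-fold higher. Slc26a4, which encodes the anion exchanger pendrin, measured 117, 1940 and 10183, a 16.6-fold difference. Pigr, the receptor gene that carries antibodies across epithelium, measured 1224, 8311 and 12680, 6.79-fold higher. Il4 itself measured 55.0, 130 and 225, 2.37-fold higher, with a log2 difference of -0.05 when control medians were set equal. Il1rl1, the receptor gene for Il33, measured 195, 992 and 2886. Clca1 and the trefoil factor gene Tff2 (218, 904 and 167) were highest in depleted lung, while Chil4, Slc26a4 and Ccl8 were highest in tumour lung. Postn, the periostin gene, was the member that was lower, with 5732, 2417 and 8712.

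**Figure D5:**
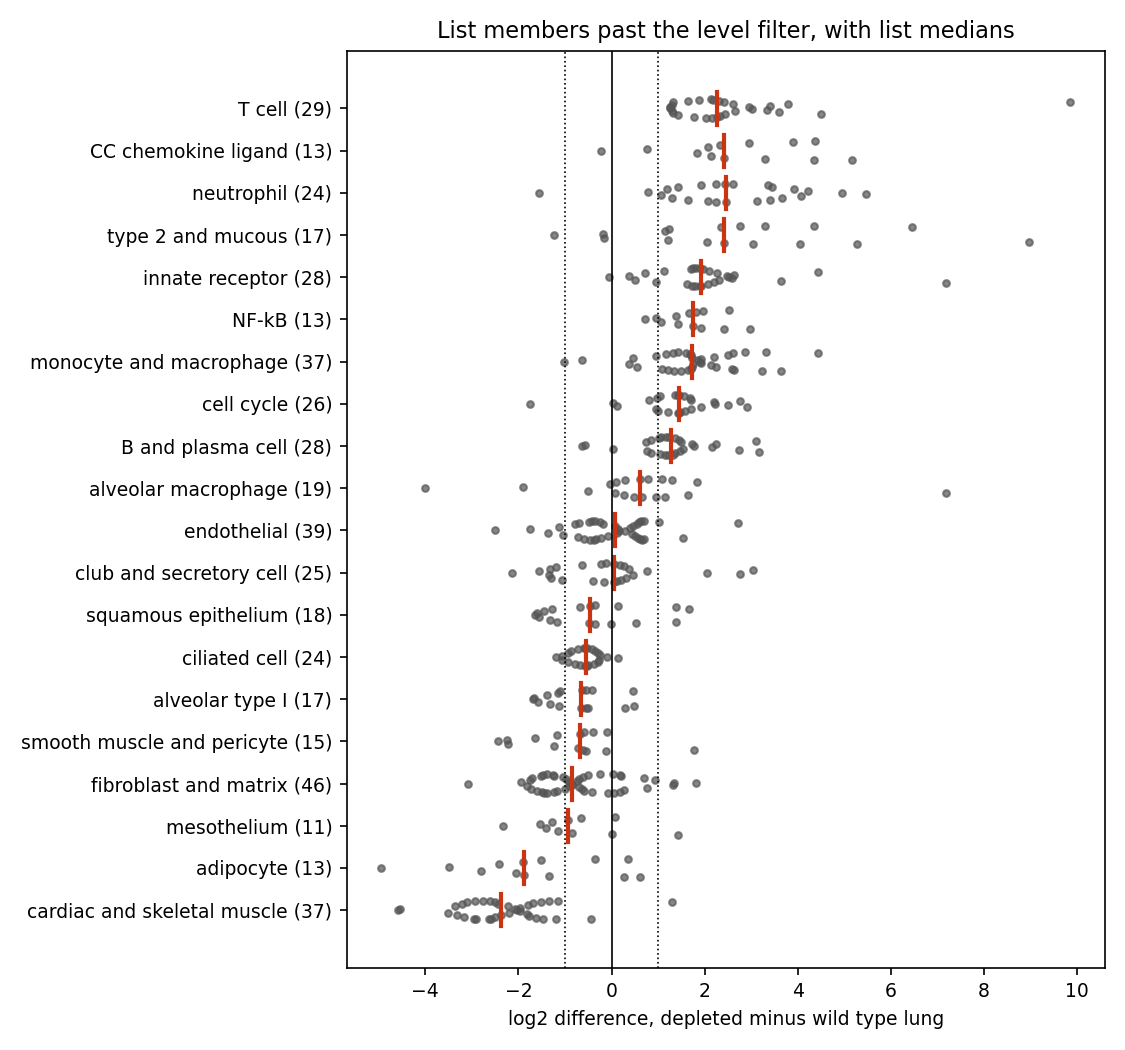
The horizontal axis is the log2 difference, depleted minus wild type lung, in the deposited intensities. Each point is a named list member that passed the level filter (number in brackets), red bars are list medians, and dotted lines mark 2-fold. Medians run from 2.45 for neutrophil genes to -2.38 for cardiac and skeletal muscle genes, and with equal control medians every value moves down by 1.29, so that the B and plasma cell and alveolar macrophage medians change sign, while the endothelial and club cell medians (0.06 and 0.05) change sign with quantile normalization as well.

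Squamous epithelium genes, the programme of the carcinoma, were mostly too dim to count. Of 50 named members 18 passed the filter, of which 3 were higher, 7 lower and 8 under 2-fold, and their median was -0.47. Krt5, the basal cell keratin, measured 106, 66.4 and 7347, and Trp63, the basal cell transcription factor, 96.5, 87.6 and 991. Both were at or below median brightness in wild type and depleted lung. The members that were higher were Trim29, an epithelial regulator, with 101, 263 and 1492, Ly6d, an epithelial surface protein gene, with 395, 1023 and 2816, and Il1rn, the interleukin 1 receptor antagonist gene, which myeloid cells also express, with 226, 714 and 2764 (log2 differences from 0.54 to 1.66 over 3 probe sets). Among those that were lower were hemidesmosome and basement membrane genes. Lama3, a laminin chain, measured 2145, 686 and 1605, 3.13-fold lower, Itgb4 233, 77.2 and 446, 3.02-fold lower (1.63-fold by the authors' deposited table), and Col17a1 135, 49.4 and 1200, 2.73-fold lower. Sox2, an airway and squamous transcription factor, measured 434, 273 and 101.

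Alveolar type I genes, of the thin cells that carry gas exchange, were lower or level. None of 17 was higher and 8 were lower, and the median log2 difference was -0.66. Col4a3, a basement membrane collagen chain, measured 2644, 818 and 663, 3.23-fold lower, and Akap5, a kinase anchoring gene, 3523, 1110 and 613, 3.17-fold lower. Cldn18, a tight junction gene of the alveolus, measured 9291, 3097 and 4974, 3.00-fold lower. Vegfa, the endothelial growth factor gene that these cells produce, measured 6429, 3005 and 3219, 2.14-fold lower. Depleted and tumour lung were both below wild type for these genes. Over the list, however, 15 of 17 genes read higher in depleted than in tumour lung. The median of tumour against wild type lung was -1.41, with 13 genes lower. Ager, the best known marker of the type, measured 12050, 8243 and 7189, 1.46-fold lower. Hopx and Cav1, at 13731 and 15531 in wild type lung, read 1.39-fold and 1.22-fold higher in depleted lung, but both lay in the bright range and were lower after quantile normalization, and Hopx had a ratio of 0.792 in the authors' deposited table. For type II cells, which make surfactant, 7 of 25 listed genes were named. The listed surfactant protein genes, Sftpc among them, were not named. Of those 7 genes 6 were counted, 1 higher and 3 lower. Etv5, a transcription factor gene, measured 790, 278 and 849, 2.85-fold lower on 1 probe set and nearly level on the other (log2 -0.14), and Lrg1, also an acute phase gene, 1706, 5910 and 9313, 3.46-fold higher.

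Of 24 ciliated cell genes none was higher, 3 were lower and 21 under 2-fold, at a median log2 difference of -0.55, and 24 of 24 read higher in depleted than in tumour lung. Tppp3, a tubulin binding gene, measured 7138, 3745 and 1134, and Rsph1, of the radial spoke, 888, 427 and 247. Among club and secretory genes 3 were higher, 7 lower and 15 under 2-fold. The shares over all genes counted were 24.6% higher and 20.9% lower. Lists share members: the higher ones were Retnla, Pigr and Tff2, also counted with the type 2 and mucous genes. Ltf, also in the neutrophil list, was among the lower ones. Bpifa1, a secreted airway defence protein gene, measured 13617, 3080 and 17.2, 4.42-fold lower than wild type. Aldh3a1, an aldehyde dehydrogenase gene, measured 1500, 590 and 248, Lypd2, of the same protein family as Ly6d, 1191, 487 and 13.7, and Cckar, a peptide hormone receptor gene, 1504, 603 and 157. These 3 were 2.44-fold to 2.54-fold lower. Some bright club cell genes did not share this. Cyp2f2, a cytochrome P450 gene of club cells, measured 15749, 21774 and 4945, and Scgb3a2, a secretoglobin gene, 16133, 20885 and 7813. They read 1.38-fold and 1.29-fold higher in depleted lung, yet had ratios of 0.593 and 0.629 in the authors' deposited table, and were lower after quantile normalization. The list median of 0.05 was -0.43 after quantile normalization and -0.46 in the authors' deposited ratios.

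Endothelial genes were level as a list and apart in a few members. Of 39 counted, 3 were higher, 5 lower and 31 under 2-fold, and the median log2 difference of 0.06 was -0.24 after quantile normalization. Kdr, the main receptor gene for Vegfa, measured 4770, 840 and 999, 5.68-fold lower. Apln, a peptide gene of sprouting endothelium, measured 707, 210 and 468, 3.37-fold lower, and Flt1, the other Vegfa receptor gene, 2324, 1122 and 688, 2.07-fold lower. The junction genes Pecam1 (5664, 3754 and 1044) and Cdh5 (10663, 6444 and 1702) were under 2-fold, and Cldn5 measured 4510, 6882 and 783. Higher members were of venules and lymphatics: Ackr1, the atypical chemokine receptor gene of venules, with 109, 718 and 492, 6.56-fold, and Reln, expressed by lymphatic endothelium, with 581, 1678 and 482, 2.89-fold. Angpt2 and Igfbp3 belong to the growth factor list and are not among these 39 genes. Angpt2, a vessel destabilising ligand gene, measured 665, 256 and 497. Igfbp3, a carrier gene of insulin-like growth factors, measured 1890, 248 and 2386, 7.63-fold lower. Igfbp3 was low in depleted lung alone.

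Part of the stromal genes were lower. In the fibroblast and matrix list, 19 of 46 genes were lower and 3 higher; the median log2 difference was -0.84. Col12a1, a fibril-associated collagen gene, measured 1152, 137 and 1511, 8.41-fold lower. Col6a3, of the microfibrillar collagen VI, measured 4742, 1224 and 5115, 3.87-fold lower, and Col5a1, which sets fibril diameter, 1133, 322 and 1883, 3.52-fold lower, with its 3 probe sets between log2 -3.41 and -0.73. Wild type and tumour lung were close to each other for Col12a1 and Col6a3, and depleted lung stood below both. Tcf21, a transcription factor gene of lung lipofibroblasts, measured 9266, 2855 and 1901, 3.25-fold lower, and there the tumour array was lower still. Col1a1, the chief collagen of scars, measured 488, 299 and 2870 on the brighter of its 2 probe sets, under 2-fold, while the other gave a log2 difference of -2.93. Lox, the collagen crosslinking enzyme gene, went the other way, with 2218, 7850 and 4559, 3.54-fold higher.

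Smooth muscle and pericyte genes were counted apart, with 1 of 15 higher and 6 lower, and a median of -0.67. Cnn1, the calponin gene, measured 1351, 283 and 264, 4.77-fold lower, and Trpc6, a cation channel gene, 229, 42.0 and 94.2, 5.45-fold lower (3.55-fold by the authors' deposited table). Rgs5, a pericyte gene, was the one that was higher, with 1056, 3627 and 7754. Of 11 mesothelium genes 5 were lower and 1 higher, and Upk3b, a uroplakin gene of the lung's outer lining, measured 1499, 296 and 502, 5.07-fold lower. Of 27 Wnt, BMP and TGF-beta genes 10 were lower, 2 higher and 15 under 2-fold, against 20.9% lower over all genes counted. Bmper, a BMP-binding protein gene, measured 1567, 461 and 683, 3.40-fold lower, and Wnt2, a ligand gene of lung mesenchyme, 1396, 581 and 128, 2.40-fold lower. The exceptions were Inhba, the activin A subunit gene, with 281, 841 and 1346, and Id2, a BMP target gene, with 2364, 5310 and 6915, whose log2 difference turned to -0.12 with equal control medians and to -0.016 with the control difference removed.

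Muscle and fat genes had the lowest medians. Of 37 cardiac and skeletal muscle genes 35 were lower and 1 higher, at a median log2 difference of -2.38, and their summed intensity was 96269 in wild type, 20041 in depleted and 5438 in tumour lung. Myh6, the atrial and adult cardiac myosin heavy chain gene, measured 11009, 3216 and 35.1, 3.42-fold lower. Myl4, the atrial light chain gene, measured 7449, 867 and 92.4 and was 8.59-fold lower. Mouse pulmonary veins carry a sleeve of heart muscle, and the amount of it, or of other muscle, in each piece of lung was not measured. Of 13 fat cell genes 9 were lower and none higher. Adipoq, the adiponectin gene, measured 979, 141 and 35.3, 6.97-fold lower, and Car3, a carbonic anhydrase gene of fat and muscle, 6677, 595 and 52.9, 11.2-fold lower. The part of a differing share of muscle and fat in the lower genes of other lists was not tested.

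Red cell precursor genes were mixed: Alas2, the first enzyme gene of erythroid haem synthesis, measured 3194, 1092 and 1749, 2.92-fold lower, while Ahsp, which stabilises free alpha globin, measured 277, 788 and 196, 2.84-fold higher. Xist, transcribed from the inactive X chromosome, measured 188, 133 and 15608 on its brightest probe set (log2 differences from -2.49 to 0.78 over 3 probe sets), and the Y-linked Eif2s3y 1341, 1467 and 11.4. Wild type and depleted lung were alike in both, and all 5 sex-linked genes were under 2-fold by their brightest probe set. Tumour lung stood apart, with Xist higher than in wild type lung and the other 4 genes lower. Differences from tumour lung may therefore also include the sex of the mouse.

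Most cell cycle genes that were counted were higher. Of 70 listed genes 29 were named and 26 counted, of which 19 were higher and 1 lower. The median log2 difference was 1.45 (0.18 with equal control medians). Several members were dim in wild type lung and passed the filter only through their level in depleted lung, so they could hardly be counted as lower. Mki67, the nuclear antigen of dividing cells, measured 159, 895 and 715, a 5.64-fold difference, and Rrm2, a subunit gene of ribonucleotide reductase, 179, 834 and 952 (log2 differences from 0.92 to 2.22 over 3 probe sets). Ccnd1, the cyclin gene that links growth signals to the cycle, was the member that was lower, with 3887, 1153 and 2551, 3.37-fold. Which cells were dividing is not resolved in whole tissue.

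Among redox genes the phagocyte oxidase subunits were higher. Ncf4 measured 713, 2942 and 3282, 4.13-fold higher, Ncf1 1069, 3579 and 3874, 3.35-fold, and Cybb, the catalytic subunit gene, 2159, 6247 and 4901, 2.89-fold. For Ncf1 and Cybb another probe set was under 2-fold (log2 0.77 and 0.85). Hmox1, the haem degrading enzyme gene, measured 176, 648 and 364, 3.67-fold higher. Sod3, the extracellular superoxide dismutase gene of vessel walls, was 6.05-fold lower, with 2813, 465 and 984. The leukotriene pathway gene Alox5ap measured 2329, 8639 and 5583, and Pla2g7, which inactivates platelet activating factor, 796, 5236 and 6454, 3.71-fold and 6.58-fold higher.

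Genes that respond to glucocorticoids went both ways. Fkbp5, a chaperone gene, measured 655, 3050 and 1354, 4.66-fold higher, and Zbtb16, a transcription factor gene, 405, 1712 and 257, 4.23-fold higher. Klf9 (440, 214 and 332) and Errfi1, an inhibitor gene of the EGF receptor (1585, 569 and 1109), were lower. The 12 genes of this list were 6 higher, 2 lower and 4 under 2-fold, and their median of 0.96 was -0.32 with equal control medians. Per3, a circadian clock gene, measured 351, 108 and 308, 3.24-fold lower, while Arntl, which peaks in the opposite phase of the day, measured 466, 518 and 309. The labels do not give the hour at which lungs were taken. Immediate early genes were partly higher, 6 of 12 with none lower, Fos measuring 1110, 2853 and 2437. Of 23 listed heat shock and endoplasmic reticulum stress genes only 5 were named, of which 4 were lower and none higher. Hspa1b, which encodes an inducible chaperone, measured 2129, 698 and 3646, 3.05-fold lower.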

How the data were processed

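RNA from lung homogenates (TRIzol, 100 ng, RIN above 9) was biotin labelled for Affymetrix arrays, per the labels' protocols. The deposited values are linear intensities of 45101 probe sets, 64 of them controls. The scaling and summarisation the authors used are not given in the sources used here; Partek is named without version in the submitters' processing notes. Array medians were 128 (wild type) and 127 (depleted). The 3 comparison tables the authors deposited hold linear ratios, per the file headers, and list 4310 probe sets (9.56%). Of these 3858 had 1 symbol, updated through RefSeq (GRCm38.p6) by accession (3661), current symbol (66) or older symbol (42), and kept for 89. Of the listed probe sets 180 had several symbols, 238 none, and 34 were controls.

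Differences are log2 of deposited intensities without further scaling. A gene with several listed probe sets took the brightest. A gene was counted if the brighter array reached its 50th percentile. A dimmer side below its 25th percentile (34.8 and 35.0) was raised to it, and the fold is then a lower bound. Named genes were the 15 highest and 15 lowest with an established symbol and all probe sets in 1 direction, list members (up to 8 at least 2-fold apart and 4 under 2-fold per list), the defining macrophage markers, and a set given in any case; not all that met the rule are printed, and some are not reported here. The members, the 49 lists (1523 genes, 793 of them named) and the motif were chosen with earlier results of these data known. With 1 array per group no p-value was computed. In a simulated comparison of depleted and wild type lung over 2422 genes, 100 of 100 planted 4-fold higher and 100 of 100 lower were recovered and 3 others called. Its noise was set by hand, far below the planted folds, and planted genes were bright in wild type lung. No scale or brightness offset was simulated. Full recovery thus followed from the settings and does not measure how reliable the calls on these arrays are. Alternatives were other scalings, filters, probe set choices and folds, the authors' ratios, and leaving out sex-linked genes. Python 3.11.15, numpy 2.4.6, pandas 2.3.3 and matplotlib 3.10.9 were used.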

Additional observations from a re-analysis of the deposited data

Results flagged for a closer look

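Some listed probe sets enter no comparison above, because they could not be given to 1 gene. Of those with several gene symbols, 153 were bright enough to be counted. Of these, 53 were higher by 2-fold or more in depleted than in wild type lung. Another 29 were lower, among them the 3 immunoglobulin heavy chain probe sets described above. Of 216 counted with no gene symbol, 65 were higher and 28 lower. Both kinds were singled out because they carry differences that the gene counts leave out. Among the named genes counted, 24.6% were higher and 20.9% lower.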

How the results depend on the processing

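The counts of 644 genes higher and 547 lower depended mainly on the scaling. With equal hybridization control medians they were 152 and 1561, so that 8.87% of the genes called were higher, against 54.1% in the deposited scale. Removing the median control difference gave 174 and 1487 (10.5% higher). The choice of fold moved them too, to 904 lower at 1.5-fold (with 890 higher) and to 351 higher and 221 lower at 3-fold, and the level filter at the 75th percentile left 323 lower. Equal array medians, quantile normalization, the probe set choices, no level filter, raised dim values, the authors' deposited ratios and leaving out sex-linked genes kept both counts within 1.5 times. The monocyte and macrophage median of 1.72 was 0.43 and 0.54 with the control scalings, 1.85 with the stricter filter and 1.38 in the authors' deposited ratios. It was above 0 in each.

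Of the genes named above, 153 were at least 2-fold apart and had a value. Under the 2 control scalings 149 and 151 of them went the same way, and 113 and 115 were still 2-fold apart. Genes called lower could not turn there, because both scalings lower every value. Under quantile normalization and in the authors' deposited ratios all 153 went the same way, and in those ratios 145 were still 2-fold apart. With equal control medians the log2 difference turned negative for Adgre1 (-0.12), Cxcl13 (-0.025), Id2 (-0.12) and Il4 (-0.047), and with the control difference removed it did for Adgre1 (-0.018) and Id2 (-0.016). The log2 difference of Ighm was -0.046 when probe sets of possibly shared sequence were left out. The list medians that turned negative with equal control medians after being at least 1 were those of chemokine receptor (-0.015), B and plasma cell (-0.016), dendritic cell (-0.021) and antigen presentation genes (-0.14), and the last was -0.038 with the control difference removed.

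Both control scalings lower all probe sets by 1 amount by construction, and which scale is right was not tested. No paired analysis was possible because each group had 1 array. Leaving out a replicate was not possible for the same reason. Levels near the dim limit, the bright range above 8192 and families of shared sequence limit single genes.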

Other observations

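The authors' tables left 40761 probe sets unlisted. Of these, 20282 were bright enough to be counted, with 558 higher by 2-fold or more and 714 lower in depleted than in wild type lung by the deposited intensities. The named genes therefore do not hold every probe set that was 2-fold apart.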
